A study of Homo sapiens with 6 samples.

Results

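The siRNAs siL1 and siL2, both against the same messenger RNA, were compared directly in 4 of the 6 RNA-seq libraries of a knockdown study in MDA-MB231, an established human cell line from a triple-negative breast tumour. The comparison took the deposited raw counts of the 2 siL2 libraries against the 2 siL1 libraries, and the 2 control libraries were left out of its test. The target of both siRNAs is KDM1A, the gene of LSD1. All cells were grown in DMEM with 10% fetal calf serum and transfected with interferin, the controls (siControl) with a control siRNA, so every group had been through transfection. The labels give neither the siRNA sequences nor the time after transfection, and MDA-MB231 is 1 line. Whether replicate libraries represent separate cultures is not stated either. The p-values therefore describe only the spread between these libraries, which may be technical.

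LSD1 is a flavin-dependent demethylase that removes methyl groups from lysine 4 of histone H3, and it works with the scaffold CoREST and histone deacetylases to keep genes such as neuronal genes silent. In other complexes and with nuclear receptors it can also act at active genes. An siRNA directs the Argonaute proteins to a transcript by base pairing. Full pairing leads to cleavage of the target, while pairing of only the seed, the bases next to the 5′ end of the guide strand, can lower other transcripts in the way a microRNA does, most often through the 3′ UTR. The part of either siRNA's seed in the differences below was not tested, since the siRNA sequences are not given in the sources used here.

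The 6 libraries held 22047738 to 26765079 counts and detected 15624 to 16065 genes. Levels are given as CPM, counts relative to the scaled total of a library, with all 6 libraries scaled together. A gene at 0 could have stood at up to 3 counts, which is 0.112 to 0.136 CPM, a floor that covers counting error only. MDA-MB231 markers were present in every library, with 0 of 14 at 0, and their summed level was 10700 to 10720 CPM with siL1 and 11540 to 11600 CPM with siL2. Luminal markers summed to 153 to 170.5 and 137 to 149 CPM, with AGR2 and GRHL2 at 0. Blood markers summed to 1532 to 1593 and 1482 to 1567 CPM, of which LCP1 and CD68 made up nearly all. Of 23 blood markers, 6 were at 0, CD53, HBA1, HBB and MS4A1 among them, and 19 averaged under 1 CPM. Fibroblast and endothelial markers summed to 608 to 627 CPM with siL1 and 517 to 523 CPM with siL2, against 420.4 to 429 CPM in the controls, with DCN and LUM at 0.

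KDM1A was lower with siL2 than with siL1. It stood at 159 and 165 CPM under siControl, 27.7 and 28.1 under siL1 and 17.3 and 18.1 CPM under siL2, and the 3 groups did not overlap. The group means were 27.9 ± 0.338 CPM with siL1 and 17.7 ± 0.539 CPM with siL2 (SD, n = 2 each), a log2 difference of -0.66 (SE 0.0778, edgeR quasi-likelihood test with Benjamini-Hochberg adjustment, adjusted p = 1.86e-05). Of the control level, 17.2% was left with siL1 and 10.9% with siL2. On the log2 scale the loss with siL2 was 1.26 times that with siL1. The authors' deposited table gives folds over the control of 0.174 with siL1 and 0.110 with siL2 for KDM1A.

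About as many genes differed between the siRNAs as differed between either siRNA and the control. Of 13274 genes tested, 6223 (46.9%) passed an adjusted p of 0.05 in edgeR's quasi-likelihood test, 3093 of them (23.3%) higher and 3130 (23.6%) lower with siL2. Against the control, 50.6% of 13237 genes passed with siL1 and 46.0% with siL2. Most of the differences were small. The size of the log2 difference among the genes called was 0.356 at the median and 0.886 at the 90th percentile, and the median difference of all genes tested was 0.002. A difference of at least 2-fold was called for 132 genes (0.994%) that were higher with siL2 and for 342 (2.58%) that were lower, and DESeq2 called 81 of the first kind. For 73.3% of all tested genes the 2 siL2 values lay on one side of both siL1 values.

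TMOD2, CA12 and SRPR had the lowest differences among genes lower with siL2 that averaged at least 5 CPM. TMOD2, which caps the slow-growing ends of actin filaments, stood at 6.15 and 6.32 CPM under siControl, 14.7 and 13.6 under siL1 and 2.57 and 2.27 CPM under siL2. It was above the control with siL1 and below it with siL2, with no overlap, and the log2 difference was -2.55 (SE 0.137, adjusted p = 2.09e-08). CA12, a carbonic anhydrase of the cell surface, had the same order, with 7.02 and 6.95 CPM under siControl, 17.4 and 18.3 under siL1 and 4.50 and 4.13 under siL2 (log2 difference -2.05, SE 0.115, adjusted p = 2.93e-08). SRPR is the alpha subunit of the receptor that brings ribosomes making secreted proteins to the endoplasmic reticulum. It stood at 222 and 215 CPM under siControl, 245 and 254 under siL1 and 62.8 and 63.0 CPM under siL2, so the siL2 libraries lay far below the other 4 (log2 difference -1.99, SE 0.0441, adjusted p = 2.48e-11). The authors' deposited table gives SRPR a fold of 1.15 with siL1 and 0.289 with siL2. The gene of the beta subunit, SRPRB, was also lower with siL2, by a smaller step (log2 difference -0.70, adjusted p = 9.55e-08).

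Spermidine synthase, SRM, makes spermidine from putrescine. Its level was 147 and 145 CPM under siControl, 138 and 142 under siL1 and 39.0 and 38.1 CPM under siL2. The siL1 and control libraries lay close together, and the difference came with the siL2 libraries (log2 difference -1.86, SE 0.05, adjusted p = 9.57e-11). CD3EAP, a subunit of RNA polymerase I, showed the same order at a lower level, with 17.9 and 16.5 CPM under siControl, 15.1 and 15.3 under siL1 and 4.58 and 4.94 under siL2 (log2 difference -1.68, adjusted p = 1.52e-07). FERMT2, kindlin-2, which activates integrins, was likewise low in the siL2 libraries alone, with 217 and 214 CPM under siControl, 265 and 272 under siL1 and 88.3 and 87.6 under siL2 (log2 difference -1.61, adjusted p = 8.23e-11). The small GTPase RAB38, which works on lysosome-related organelles, fell from 8.15 and 7.85 under siL1 to 1.38 and 1.58 CPM under siL2 (log2 difference -2.44, adjusted p = 1.67e-07). The Ras effector RASSF5 (-1.97), the adhesion receptor LPHN2 (-1.82), the long non-coding RNA UCA1 (-1.79), SH3BGRL2 (-1.76) and PPPDE1 (-1.71) were lower on the log2 scale, as were the hydrolase RBBP9 (-1.69), the zinc transporter SLC39A6 (-1.65), the glutamate transporter SLC1A3 (-1.63), the deubiquitinase USP46 (-1.63) and the lysosomal membrane protein LAPTM4B (-1.62). Each had groups that did not overlap, as the rule for naming the 15 lowest required.

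RG9MTD2, which methylates transfer RNA, was the most raised with siL2 relative to siL1 among genes of at least 5 CPM. It stood at 6.56 and 7.63 CPM under siControl, 3.73 and 3.82 under siL1 and 18.6 and 19.1 CPM under siL2, so the control lay between the siRNAs (log2 difference 2.31, SE 0.115, adjusted p = 1.09e-08). The lipase LIPH, which makes lysophosphatidic acid, stood at 6.79 and 5.98 CPM under siControl, 5.81 and 5.29 under siL1 and 21.4 and 20 under siL2, high in the siL2 libraries alone (log2 difference 1.90, adjusted p = 3.51e-08). NEAT1, the RNA scaffold of nuclear paraspeckles, varied more between replicates than these. Its level was 84.1 and 109 CPM under siControl, 53.7 and 76.8 under siL1 and 193 and 231 CPM under siL2, and the siL2 libraries still lay above the other 4 (log2 difference 1.69, SE 0.119, adjusted p = 2.09e-07). In ORC6, which helps to mark the origins where DNA replication starts, the siL1 libraries were the ones that stood apart. It stood at 59.4 and 63.7 CPM under siControl, 18.0 and 22.9 under siL1 and 56.7 and 61.3 CPM under siL2, where the control and siL2 ranges overlapped and siL1 lay below both (log2 difference 1.52, SE 0.0928, adjusted p = 6.03e-08).

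Other genes higher with siL2 on the log2 scale were CDC26 of the anaphase-promoting complex (1.81), the actin-binding XIRP2 (1.76), the secreted FAM3C (1.67), PAFAH2, which breaks down platelet-activating factor (1.61) and the calcium sensor of synaptic vesicles SYT1 (1.59). The EGF receptor ligand EREG (1.38), ANKRD9 (1.36) and the little-described or non-coding LOC100499467 (1.69), LINC00472 (1.66) and LOC147727 (1.52) were also among the 15 highest. LOC147727 resembled ORC6, with 25.1 and 26.3 CPM under siControl, 8.87 and 8.95 under siL1 and 24.6 and 26.5 under siL2.

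**Figure D1:**
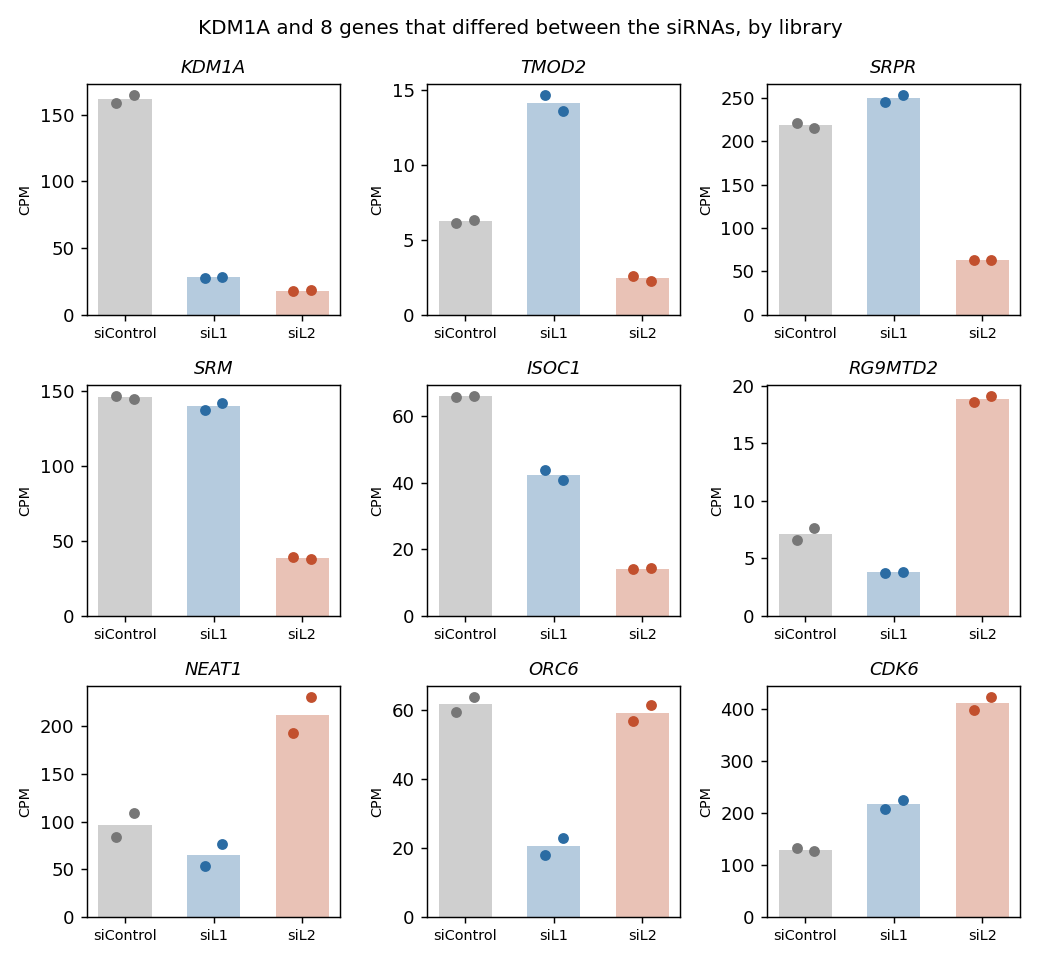
CPM of KDM1A and 8 genes that differed between the siRNAs, in each library. Points are the libraries and bars the group means, the vertical axes start at 0 and differ between panels. For SRPR and SRM the siL2 points lie below the other 4, for ORC6 the siL1 points do, and for TMOD2 and RG9MTD2 the control lies between the siRNAs.

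The letters GTTACAA stood in the 3′ UTR of 17.0% of the genes called lower with siL2, against 9.35% of all tested genes with one. ACAGAGC stood in 22.0% of those called higher, against 17.7%. Both heptamers were known from earlier work on these same data, so their shares are a description. The 25-base windows below are shown because their genes lead the comparison or, for GCC2, a gene list described further on, and they come from GENCODE v29 transcripts on GRCh38, 5′ to 3′ along the transcript, with the heptamer in capitals. The first 5 belong to genes lower with siL2 and the last 2 to genes higher with siL2.

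TMOD2: tcctctttggatttGTTACAAacct

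SRM: cccaccaaccaagtGTTACAAgccc

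RBBP9: aacattcaatctaaGTTACAAatag

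CD3EAP: catttatccattgaGTTACAAacaa

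RAB38: aaaatatttagtctGTTACAAactt

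XIRP2: gaagaaacagactgACAGAGCagct

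GCC2: ctccagctcggggaACAGAGCgaga

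The windows lie in the 3′ UTRs of TMOD2 at chr15:51810678-51810702 (plus strand), SRM at chr1:11054739-11054763 (minus strand), RBBP9 at chr20:18489612-18489636 (minus strand), CD3EAP at chr19:45409832-45409856 (plus strand) and RAB38 at chr11:88113757-88113781 (minus strand). Those of the other set lie in XIRP2 at chr2:167258886-167258910 (plus strand) and GCC2 at chr2:108508112-108508136 (plus strand). The base right after GTTACAA is an A in the TMOD2, RBBP9, CD3EAP and RAB38 windows and a G in that of SRM. Otherwise these 5 windows have little in common outside the heptamer. Of the 15 lowest genes, 11 had an annotated 3′ UTR under the symbol the table uses of which 10 held GTTACAA and 2 held ACAGAGC, and of the 15 highest, 10 had one, 1 held GTTACAA and 4 held ACAGAGC.

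Across the 11406 tested genes with an annotated 3′ UTR, the share with GTTACAA differed with the direction of the difference and, among genes lower with siL2, with its size. GTTACAA stood in 9.35% of all these genes, in 17.0% of those called lower with siL2 and in 5.61% of those called higher. Among the lower genes it was 13.0% at a log2 difference under 0.5, 23.6% at 0.5 to 1 and 25.3% in the 304 that were at least 2-fold lower. Among the higher genes the 3 bins gave 5.58%, 5.48% and 7.32%, against 7.33% of the genes not called. The reverse complement, searched as a strand control, stood in 13.5% of all genes, 14.9% of the lower and 13.2% of the higher ones, with median 3′ UTRs of 1390, 1620 and 1426 bases. The 1067 genes with GTTACAA had a median log2 difference of -0.16 between the siRNAs, with 45.7% called lower and 14.2% called higher, whereas the 10339 genes without it had a median of 0.004, with 23.1% lower and 24.6% higher. Against the control, the genes with GTTACAA had medians of 0.03 with siL1 and -0.12 with siL2. Among genes called lower with siL2, GTTACAA stood in 22.3% where only siL2 passed against the control and 10.7% where only siL1 did. In those lowered by both siRNAs it stood in 26.5%, and in those raised by both in 11.1%. Where siL1 raised the gene and siL2 lowered it the share was 33.9%, with the reverse complement at 24.0%.

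ACAGAGC showed a smaller gradient the other way. It stood in 17.7% of all genes, 22.0% of those called higher with siL2, 16.8% of those called lower and 28% of the 82 that were at least 2-fold higher, while its reverse complement stood in 20.9%, 20.4% and 23.6% of all, higher and lower genes. The 2015 genes with ACAGAGC had a median log2 difference of 0.03, and 29.3% were called higher against 22.4% of the genes without it. In 189 genes a site lay within a longer run of letters that recurs between genes, as in ORC6 and PAFAH2. Of these, 27.5% were called higher, against 29.5% of the 1910 genes with at least 1 site outside that run. Only exact copies were counted as the run, so a near variant, as in CD68, was placed outside it.

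**Figure D2:**
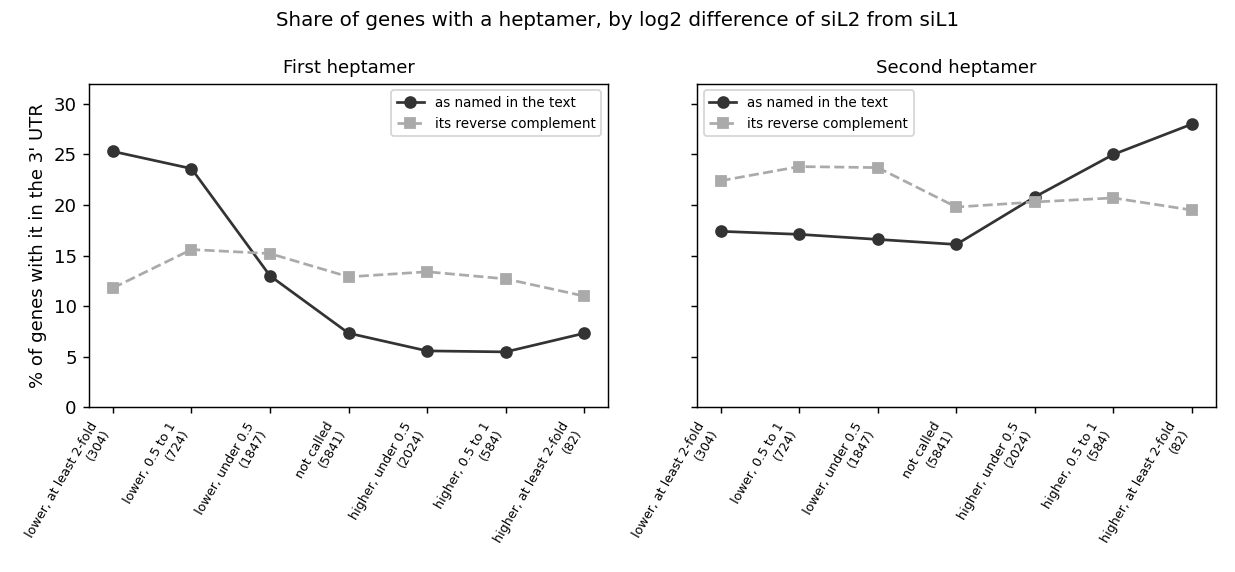
Share of genes with a heptamer in the annotated 3′ UTR (vertical axis, %) for genes ordered from at least 2-fold lower to at least 2-fold higher with siL2 (horizontal axis, log2 bins with the number of genes in parentheses). The first heptamer falls from 25.3% to 7.32% from left to right, the second rises from 17.4% to 28%, and the reverse complements (squares) span 11% to 15.6% and 19.5% to 23.8%.

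In KDM1A itself, GTTACAA occurred 2 times within the coding sequence of the annotated transcript and not in its 3′ UTR. One of these sites is shown because KDM1A is the gene both siRNAs were made against.

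KDM1A: gcagcagctcgacaGTTACAAagtt

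This window lies at chr1:23055982-23056006 (plus strand) in GRCh38. ACAGAGC occurred 1 time in KDM1A, in the 5′ UTR. Of 2545 mature human microRNAs in RefSeq, 0 had a seed complementary to either heptamer over its full length. Shorter or shifted pairings were not searched, and the part of microRNAs was not tested. None of these matches shows where either siRNA binds.

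The 6223 genes were then placed by the change each siRNA gave against the control, to see which ran with the deeper KDM1A loss of siL2. The classes use libraries that the direct comparison also used, so their counts have no test. Both siRNAs changed 594 genes (9.55%) in the same direction with siL2 further from the control, the order KDM1A itself has. Another 783 genes (12.6%) moved the same way with both but further with siL1, against the order of KDM1A. In 534 genes (8.58%) the siRNAs moved expression in opposite directions. A change against the control passed with siL1 alone for 2073 genes (33.3%), with siL2 alone for 1623 (26.1%) and with neither for 615 (9.88%). Both classes with the same direction were rarer still among large differences. Of the genes at least 2-fold apart, 0 higher and 17 lower ones were in the siL2-further class. The siL1-further class held 1 and 21, the opposite class 32 and 56, siL1 alone 31 and 141 and siL2 alone 37 and 69. KDM1A itself, with a log2 difference of -0.66, was less than 2-fold apart.

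When the 6223 genes were ordered by their group means alone, the control mean lay between the siRNA means in 46.5%, against 30.9% of all tested genes, and in 64.3% of the 474 genes at least 2-fold apart. A wide gap between the siRNAs leaves more room for the control inside it, so these shares too are a description. The class sizes depended on single libraries. The opposite class held 320 and 301 genes without siControl replicate 1 or 2, and the class of neither rose to 1187 and 1233. The siL2-further class held 386 and 373 genes without siL1 replicate 1 or 2, and the siL1-further class 499 and 515 without siL2 replicate 1 or 2. With DESeq2 the siL2-further, siL1-further and opposite classes held 338, 455 and 323 genes.

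**Figure D3:**
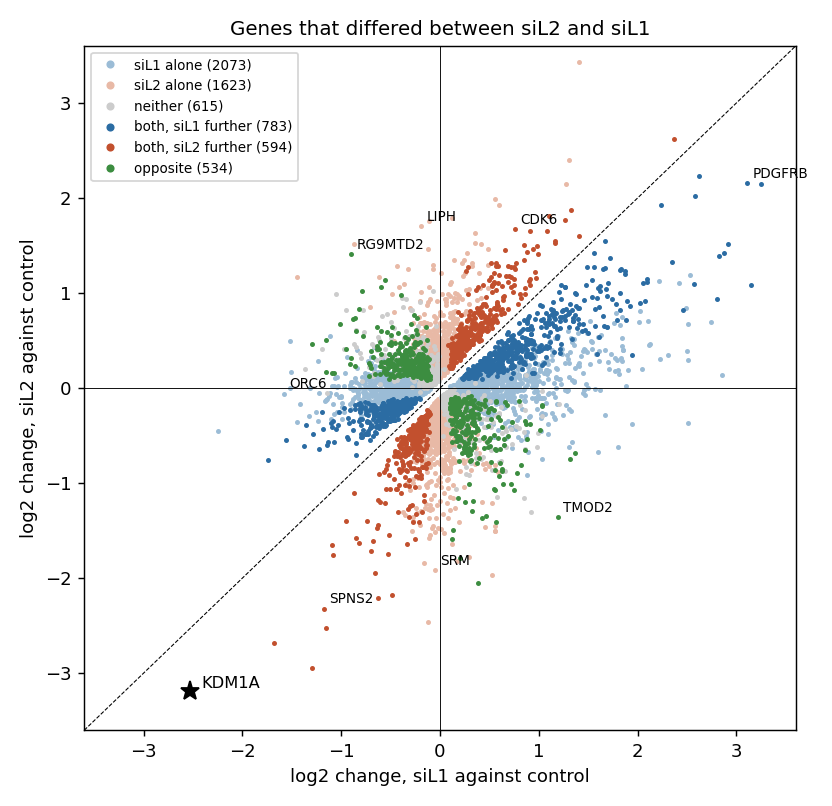
Log2 change against the control with siL1 (horizontal) and siL2 (vertical) for the genes that differed between the siRNAs, coloured by class with the number of genes in each, with 2 genes outside the axes. Genes on the dashed diagonal would be equal with both siRNAs. KDM1A lies below the diagonal at the lower left, TMOD2 and RG9MTD2 lie in the opposite quadrants, and ORC6 and SRM lie near an axis.

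With the deeper KDM1A loss ran SPNS2, the exporter of sphingosine-1-phosphate, and the cell-cycle kinase gene CDK6. SPNS2 stood at 99.7 and 98.0 CPM under siControl, 45.6 and 41.2 under siL1 and 21.3 and 18.0 CPM under siL2, stepping down without overlap (log2 difference between the siRNAs -1.14, SE 0.0865, adjusted p = 3.81e-07). CDK6 stepped up, with 133 and 127 CPM under siControl, 209 and 226 under siL1 and 399.8 and 424 CPM under siL2 (log2 difference 0.92, SE 0.0459, adjusted p = 1.14e-08). Cyclin G2, CCNG2, a cyclin of quiescent cells, rose from 6.06 and 7.25 CPM under siControl to 14.3 and 14.3 under siL1 and 23.8 and 22.8 under siL2 (log2 difference between the siRNAs 0.71, adjusted p = 2.06e-05). ISOC1, RBBP9 and HNRNPA1 also stepped down with both, with the larger step between siL1 and siL2. ISOC1 fell by 0.63 with siL1 and by 2.21 with siL2 on the log2 scale. The Wnt receptor FZD5 (-0.68), the collagenase MMP1 (-1.29) and the complex I subunit NDUFB2 (-0.65) were lower with siL2 than with siL1 and fell with both, while the metalloproteinase MMP19 (0.74), the myosin heavy chain MYH15 (0.80) and the macrophage growth factor CSF1 (0.70) were higher with siL2 and rose with both. HNRNPA1 has many near-identical pseudogene copies, and its level of 15.7 and 15.7 under siL1 and 6.55 and 5.91 CPM under siL2 is uncertain for that reason. GTTACAA stood in the 3′ UTR of 26.5% of the genes lowered by both and further by siL2, against 9.35% of all genes. Its reverse complement stood in 18.2% against 13.5%. ISOC1, RBBP9, HNRNPA1 and FZD5 held GTTACAA, while SPNS2, MMP1 and NDUFB2 did not. Its part in their lower level with siL2 was not tested. The letters TACATTT, another heptamer named in earlier work on these data, stood in the 3′ UTR of 49.3% of the genes raised by both and further by siL2, against 26.7% of all genes, and their reverse complement in 39.4% against 28.6%. In the genes raised by both and further by siL1 the shares were 39.5% and 31.7%, and in those raised by siL1 and lowered by siL2 37.6% and 39.4%. The 3′ UTRs of the genes raised by both and further by siL2 were longer than those of all genes (median 1988 against 1390 bases). They were also poorer in G and C (37.3% against 42.5%).

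Against the order of KDM1A ran genes such as IL2RB, PDGFRB and IL11, which rose more with siL1, the siRNA that left more KDM1A. The interleukin-2 receptor chain IL2RB stood at 1.09 and 1.53 CPM under siControl, 10.1 and 9.19 under siL1 and 3.83 and 3.20 CPM under siL2, with siL2 between the others (log2 difference -1.45, SE 0.143, adjusted p = 3.94e-06). The PDGF receptor gene PDGFRB was below 1 CPM in the controls (0.775 and 0.890) and stood at 6.45 and 7.93 under siL1 and 3.80 and 3.64 CPM under siL2 (log2 difference -0.95, adjusted p = 0.000241). IL11, a cytokine that signals through the IL6ST chain, had 12.9 and 18.1 CPM under siControl, 54.3 and 63.0 under siL1 and 26.0 and 30.7 under siL2 (log2 difference -1.06, adjusted p = 9.49e-07). These genes kept their direction with both siRNAs and differed in size. The secreted glycoprotein STC1 (-0.98), CRISPLD2 (-1.16), RASSF2 (-1.0), MAMDC2 (-0.82) and CCDC68 (-0.89) had the same order.

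Opposite directions were taken by surface and redox genes as well as by those named first. NT5E, the surface enzyme that makes adenosine, stood at 939.5 and 917 CPM under siControl, 1715 and 1747 under siL1 and 737 and 684 CPM under siL2, so it rose with one siRNA and fell with the other (log2 difference -1.29, SE 0.0373, adjusted p = 1.26e-10). TXNRD1, thioredoxin reductase, had the same order, with 572 and 569.6 CPM under siControl, 1014 and 1059 under siL1 and 444 and 429 under siL2 (log2 difference -1.25, adjusted p = 1.26e-10). So did IL6ST, the signalling chain shared by interleukin-6 family receptors, with 165 and 164, 318 and 348 and 145 and 145 CPM in that order of groups (log2 difference -1.20, adjusted p = 1.79e-09). MAMLD1 (-1.51), the surface marker CD24 (-1.50), GPRC5B (-1.47) and WDR37 (-1.40) also rose with siL1 and fell with siL2.

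Gene lists written from general knowledge, 41 in all, were read against the 23.3% of all tested genes that were higher and the 23.6% that were lower with siL2. Of all 13274 tested genes, 594 were in the siL2-further class, 783 in the siL1-further class, 2073 in siL1 alone and 1623 in siL2 alone. Class counts within a list are to be read beside these. Cell-cycle genes were higher with siL2 than with siL1. The list of G1/S and DNA replication had 58 tested genes, of which 42 were higher and 4 lower, with a median log2 difference of 0.27, and of 62 G2/M and mitosis genes 45 were higher and 2 lower, with a median of 0.22. Against the control, their medians were -0.27 and -0.27 with siL1 and 0.002 and 0.00 with siL2, and 23 and 28 of them fell into the siL1-alone class. MKI67, the gene of the proliferation antigen Ki-67, stood at 668 and 579 CPM under siControl, 411 and 391 under siL1 and 680.3 and 679 CPM under siL2. The siL1 libraries lay below the other 4 (log2 difference between the siRNAs 0.76, SE 0.0357, adjusted p = 7.66e-09). The siL2 values were above both controls, but the change from the control with siL2 did not pass the threshold (log2 change 0.13). MCM6, part of the replicative helicase, had 189 and 196 CPM under siControl, 117 and 115 under siL1 and 207 and 211 under siL2 (log2 difference 0.85, adjusted p = 9.79e-09).

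The transcription factor E2F1, which drives replication genes, was also low in the siL1 libraries, and it was above the control in the siL2 libraries. It had 83.3 and 92.9 CPM under siControl, 62.2 and 65.9 under siL1 and 109.5 and 116 CPM under siL2 (log2 difference 0.81, adjusted p = 9.55e-08). The flap endonuclease FEN1 (0.61), the helicase subunit MCM2 (0.61), the mitotic kinesin KIF20A (0.69), the hyaluronan receptor HMMR (0.74) and the phosphatase CDC25C (0.95) were higher with siL2 by the log2 differences given. Of 13 replication-dependent histone genes tested, 0 were higher and 1, HIST1H2BK, was lower (-0.34, adjusted p = 0.00134). Without siL2 replicate 1, 1 was higher, and without siL2 replicate 2, 2 were lower. These genes have near-identical copies, so their counts are uncertain.

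Genes of hypoxia and of sugar breakdown were lower with siL2 than with siL1. Of 34 tested hypoxia-response genes 23 were lower and 0 higher (median -0.40), and of 31 glycolysis and lactate genes 21 were lower and 0 higher (median -0.25). Against the control the medians were 0.42 and 0.26 with siL1 and 0.01 and -0.02 with siL2. LDHA, the lactate dehydrogenase subunit that makes lactate from pyruvate, stood at 865 and 901 CPM under siControl, 1333 and 1444 under siL1 and 787 and 806 CPM under siL2. The siL1 libraries were high, and siL2 lay below the control (log2 difference -0.80, SE 0.0393, adjusted p = 1.00e-08). The lactate exporter SLC16A3 showed 166 and 169 CPM under siControl, 266 and 282 under siL1 and 159 and 152 under siL2 (log2 difference -0.82, adjusted p = 2.03e-08). HK2, the hexokinase that traps glucose in the cell, differed through siL2 instead. It had 214 and 204 CPM under siControl, 208 and 212 under siL1 and 126 and 119 under siL2 (log2 difference -0.78, adjusted p = 2.45e-08). The collagen hydroxylase PLOD2 (-0.79), NDRG1 (-0.77), the mitophagy receptor BNIP3 (-0.45), the phosphoglucomutase PGM1 (-0.63) and the phosphofructokinase PFKP (-0.37) were lower.

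In the lists of matrix, protease, TGF-beta, adhesion and YAP genes, more members were lower than higher with siL2. Of 43 tested genes of matrix proteases and inhibitors, 26 were lower and 3 higher (median -0.35), of 43 matrix proteins 21 and 7 (median -0.25), of 39 TGF-beta targets and pathway genes 17 and 4 (median -0.24), of 34 integrin and adhesion genes 18 and 6 (median -0.14) and of 28 YAP and TEAD targets 14 and 7 (median -0.09). Without siL1 replicate 2, 5 protease genes were higher. Among the proteases and inhibitors 15 belonged to the siL1-further class. CTGF, a matricellular protein induced by TGF-beta and YAP, stood at 733 and 751 CPM under siControl, 1378 and 1453 under siL1 and 774 and 742 CPM under siL2. The control and siL2 ranges overlapped and both siL1 values were far above them (log2 difference -0.90, SE 0.0362, adjusted p = 2.23e-09). The collagen chain COL5A1 rose with both, from 22.8 and 20.6 CPM under siControl to 65.5 and 73.8 under siL1 and 32.7 and 34.5 under siL2 (log2 difference between the siRNAs -1.06, adjusted p = 1.12e-07).

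THBS1, thrombospondin-1, rose with siL1 and fell with siL2 (-0.74 between them), as did the protease inhibitor SERPINE2 (-0.98), the protease ADAMTS1 (-1.19), the BMP antagonist NOG (-1.10) and the focal adhesion protein ZYX (-0.73). FSTL1 (-0.56), the latent TGF-beta binding protein LTBP2 (-0.52), the tetraspanin CD151 (-0.48) and the basement membrane collagens COL4A1 (-0.79) and COL4A2 (-0.48) were lower with siL2 as well. MMP24, a membrane-bound metalloproteinase, went the other way (1.09), with 11.8 and 11.3 under siL1 and 25.0 and 24.5 CPM under siL2. Of 13 tested fibroblast and endothelial markers, 8 were lower and 1 higher with siL2, MCAM (-0.82) and COL1A1 (-0.49) among the lower, or 5 lower with DESeq2. The part of such cells in the result was not tested. Of 21 such markers in the table, 2 (DCN and LUM) were at 0 in every library and 11 averaged under 1 CPM.

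**Figure D4:**
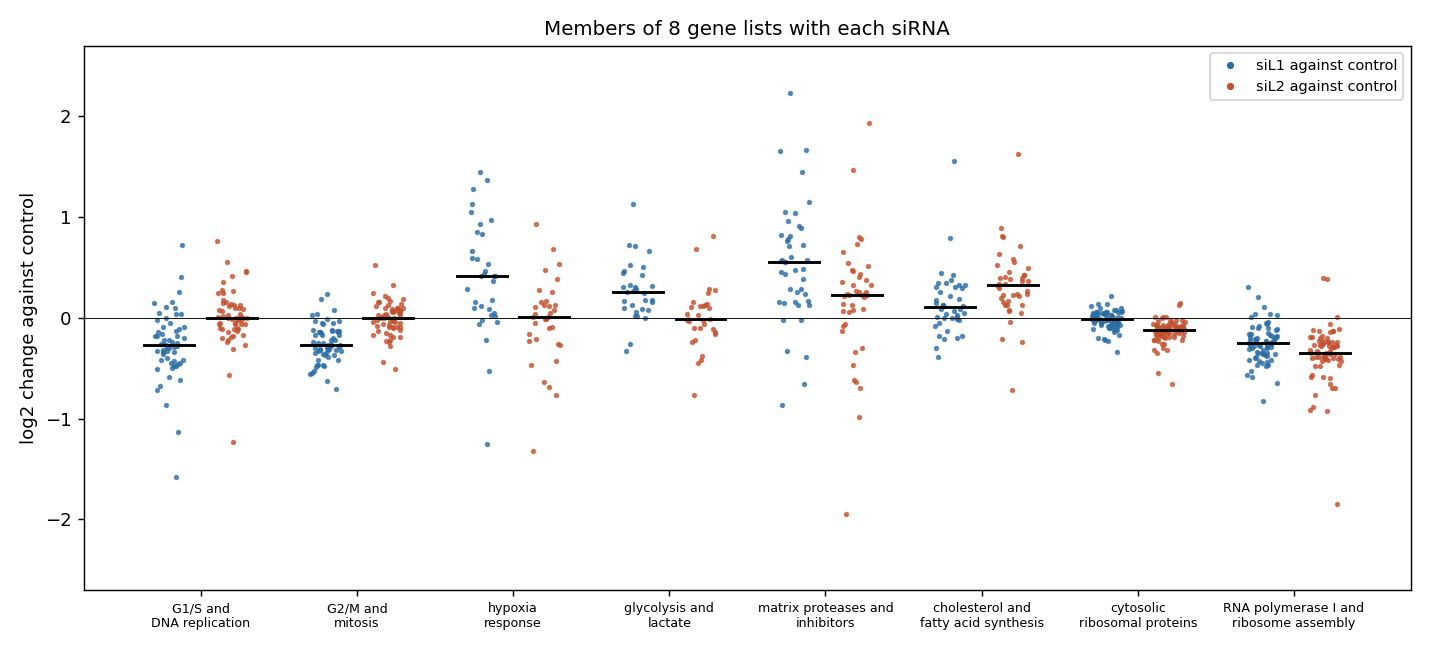
Log2 change against the control with siL1 (blue) and siL2 (red) for the tested members of 8 gene lists, where each point is a gene and the black bar the median of the list. The cell-cycle medians are near -0.27 with siL1 and 0 with siL2, the hypoxia median is 0.42 with siL1 and 0.01 with siL2, and the lipid synthesis median is higher with siL2.

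Cholesterol and fatty acid synthesis genes ran the other way from the metabolic genes above. Of 42 tested, 25 were higher and 4 lower with siL2 (median 0.26). Their medians against the control were 0.10 with siL1 and 0.32 with siL2, 15 were in the siL2-alone class and 6 in the siL2-further class. FDPS, which makes farnesyl diphosphate, stood at 125 and 126 CPM under siControl, 133 and 125 under siL1 and 192 and 183 CPM under siL2, high in the siL2 libraries alone (log2 difference 0.54, SE 0.0454, adjusted p = 1.01e-06). The sterol oxidase MSMO1 stepped up, with 73.0 and 69.8 CPM under siControl, 85.6 and 89.3 under siL1 and 128 and 122 under siL2 (log2 difference 0.51, adjusted p = 2.49e-06). SCD, the desaturase that makes oleate, had 1714 and 1722 CPM under siControl, 1798 and 1827 under siL1 and 2381 and 2316 under siL2 (log2 difference 0.37, adjusted p = 6.67e-07). Fatty acid synthase, FASN, reached its difference (0.37) through a fall with siL1, at 653 and 595 CPM under siControl, 492 and 515 under siL1 and 657 and 649.6 CPM under siL2.

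Genes of the cytosolic ribosome were lower with siL2 by small steps. Of 76 tested, 39 were lower and 2 higher (median -0.12), 29 in the siL2-alone class. Without siL2 replicate 1, 25 were lower, and without any 1 of the 4 libraries 1 was higher. RPL6 stood at 297 and 316 CPM under siControl, 279 and 289 under siL1 and 191 and 197 CPM under siL2 (log2 difference -0.55, SE 0.0397, adjusted p = 2.38e-07), and RPS3 was lower by a smaller step (-0.25). Reads of ribosomal protein genes are shared with their many pseudogenes, so these levels are uncertain. Of 71 RNA polymerase I and ribosome assembly genes, 24 were lower and 9 higher (median -0.06), and most had fallen with both siRNAs: 52 were lower than the control with siL1 and 64 with siL2. In this list 14 ran with the KDM1A loss, among them the polymerase I subunit TWISTNB, with 134 and 132 CPM under siControl, 113 and 118 under siL1 and 72.6 and 67.7 under siL2 (log2 difference -0.72, adjusted p = 2.29e-07). Another 7 ran against it. Nucleolin, NCL, was among these 7, with 1891 and 1957 CPM under siControl, 1077 and 1083 under siL1 and 1465 and 1553 under siL2 (log2 difference 0.48, adjusted p = 2.55e-07). Of 75 mitochondrial ribosomal protein genes, 17 were higher and 7 lower. MRPL49 was the exception in size, at 143 and 139.6 under siL1 and 61.4 and 61.9 CPM under siL2 (log2 difference -1.20, adjusted p = 1.47e-09), while MRPL44 was higher (0.95).

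In the secretory pathway, genes of the unfolded protein and ATF4 response were lower with siL2 in 24 of 51 cases and higher in 4 (median -0.14). EDEM1, which marks misfolded glycoproteins for disposal, stood at 281 and 275 CPM under siControl, 409 and 432 under siL1 and 228 and 209 CPM under siL2 (log2 difference -0.95, SE 0.0457, adjusted p = 9.79e-09). The lipoprotein receptor VLDLR (-1.45) and the serine synthesis enzyme PSAT1 (-0.58) were lower too. Of 53 secretory and Golgi trafficking genes, 14 were higher and 16 lower, and 17 belonged to siL1 alone. GCC2, a tether of the trans-Golgi, stood at 75.5 and 67.6 CPM under siControl, 27.7 and 27.7 under siL1 and 55.6 and 53.4 CPM under siL2 (log2 difference 0.97, adjusted p = 9.55e-08). The coat protein SEC24A showed the reverse, with 37.4 and 41.8 CPM under siControl, 80.7 and 88.0 under siL1 and 45.5 and 43.7 under siL2 (log2 difference -0.92, adjusted p = 9.55e-08). Among 45 Rab GTPases and their regulators 17 were lower and 8 higher. The Rab GTPase-activating protein TBC1D10B was low with siL1 alone, at 84.1 and 84.1 CPM under siControl, 34.5 and 32.9 under siL1 and 85.3 and 82.2 under siL2 (log2 difference 1.31, adjusted p = 4.65e-09).

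Of 27 tested genes other than KDM1A in the list named for LSD1 and CoREST, 4 were higher and 7 lower with siL2. The median of the list was 0.05. The list also holds genes outside the CoREST complex, such as MBD2, CHD3 and GATAD2A. In all 40.7% of the list differed, against 46.9% of all genes. The list had 0 genes in the siL2-further class, which held 594 of all 13274 tested genes, so 0 of 27 shows little. The scaffold RCOR1, CoREST itself, stood at 162 and 160.5 CPM under siControl, 169 and 168 under siL1 and 118 and 111 CPM under siL2 (log2 difference -0.56, SE 0.0445, adjusted p = 6.01e-07). The methyl-DNA reader MBD2 was low with siL1 alone, at 89.3 and 90.3 CPM under siControl, 44.0 and 39.9 under siL1 and 90.1 and 91.8 under siL2 (log2 difference 1.11, adjusted p = 1.81e-08). Of 15 tested neuronal genes under the repressor REST, which recruits CoREST, 0 were higher and 6 lower with siL2 (median -0.28), among them NRCAM (-0.64) and TUBB3 (-0.30), and 1 was higher without siL1 replicate 2. L1CAM, another of them, had 21.5 and 22.1 CPM under siControl, 36.3 and 37.2 under siL1 and 29.7 and 28.9 under siL2, above the control with both. Among 45 histone lysine methylases and demethylases, 19 were higher and 6 lower (median 0.10), with DOT1L (0.56) and KDM5C (0.41) among the higher.

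Of 31 tested genes of the microRNA and RNA interference machinery, which an siRNA itself uses, 10 were higher and 8 lower with siL2. TARBP2, the partner of Dicer, stood at 32 and 33.5 CPM under siControl, 22.0 and 24.3 under siL1 and 44.0 and 45.4 CPM under siL2 (log2 difference 0.95, SE 0.0719, adjusted p = 4.04e-07). The Argonaute gene EIF2C2 was higher with siL2 (0.46), whereas EIF2C4 (-1.0) and the scaffold TNRC6A (-0.67) were lower. Without siL1 replicate 2 or siL2 replicate 2, 5 genes of this list were lower. Of 64 nuclear splicing genes 24 were higher and 10 lower (median 0.06). Without siL2 replicate 1, 6 splicing genes were lower. The splicing helicase DHX38 was low with siL1 alone, with 128 and 135 CPM under siControl, 53.6 and 57.7 under siL1 and 121 and 131 under siL2 (log2 difference 1.18, adjusted p = 9.50e-09).

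The cytokine and antigen presentation lists had more members lower than higher with siL2, while the interferon and EGF receptor family lists were closer to even. Of 34 tested cytokine, chemokine and NF-kB genes, 15 were lower and 2 higher with siL2 (median -0.14), with 1 higher without siL1 replicate 1 or siL2 replicate 2 and 5 without siL1 replicate 2. The leukemia inhibitory factor receptor LIFR (-0.78) and IL6R (-1.19) were lower, and the 15 EGF receptor family genes and ligands split into 4 higher and 4 lower. HBEGF, an EGF receptor ligand, stood at 107 and 118 CPM under siControl, 215 and 247 under siL1 and 98.7 and 109 CPM under siL2, high with siL1 alone (log2 difference -1.16, SE 0.0652, adjusted p = 3.08e-08). Without siL1 replicate 1, 2 of the EGF receptor family genes were lower. Interferon-response genes were higher in 16 of 52 cases and lower in 12, with the RNA sensor DDX58 (0.69) higher and IFITM2 (-0.63) lower. SAMD9 stepped up with both siRNAs, from 30.3 and 30.3 CPM under siControl to 39.2 and 39.6 under siL1 and 60.4 and 66.1 under siL2. Of 19 antigen presentation genes 7 were lower and 1, HLA-E (0.46), was higher, and reads of HLA genes can be shared between them.

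The remaining lists held members on both sides. Of 35 apoptosis regulators 10 were higher and 9 lower with siL2. The survival factor MCL1 stood at 479.9 and 500.3 CPM under siControl, 539 and 589 under siL1 and 329.7 and 341 CPM under siL2 (log2 difference -0.75, adjusted p = 3.96e-08), while its relative BCL2L2 was higher (0.61). The p53 network had 9 higher and 10 lower of 33, with MDM2 (0.74) higher and CDKN1A (-0.39) lower. Autophagy and lysosome genes had 13 and 13 of 50, where the lipid transfer protein ATG2A (1.09) was higher and LAMP1 (-0.57) and LAMP2 (-0.58) lower. Of 57 nuclear genes of the respiratory chain 18 were higher and 7 lower, or 4 lower without siL2 replicate 1. NRF2 antioxidant genes had 7 higher and 11 lower of 28, with haem oxygenase HMOX1 (-0.87) lower, and 2 higher without siL2 replicate 2. Sphingolipid signalling had 3 and 10 of 23, Wnt receptors and targets 7 and 11 of 33, AP-1 and immediate early genes 5 and 12 of 33 (3 higher without siL1 replicate 1), mesenchymal and epithelial genes 6 and 7 of 24, aminoacyl tRNA synthetases 8 and 9 of 23 and polyamine genes 6 and 7 of 18. Leaving out siL1 replicate 1, siL1 replicate 2 or siL2 replicate 2 left 4 polyamine genes lower. DESeq2, which called 4496 genes in all, moved some of these counts by more than 1.5 times: 12 histone lysine enzymes, 4 NRF2 genes, 3 mesenchymal and epithelial genes, 2 unfolded protein genes, 1 cytokine gene and 1 cytosolic ribosomal protein gene were higher, and 5 splicing, 4 respiratory chain, 4 polyamine and 2 EGF receptor family genes were lower.

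**Figure D5:**
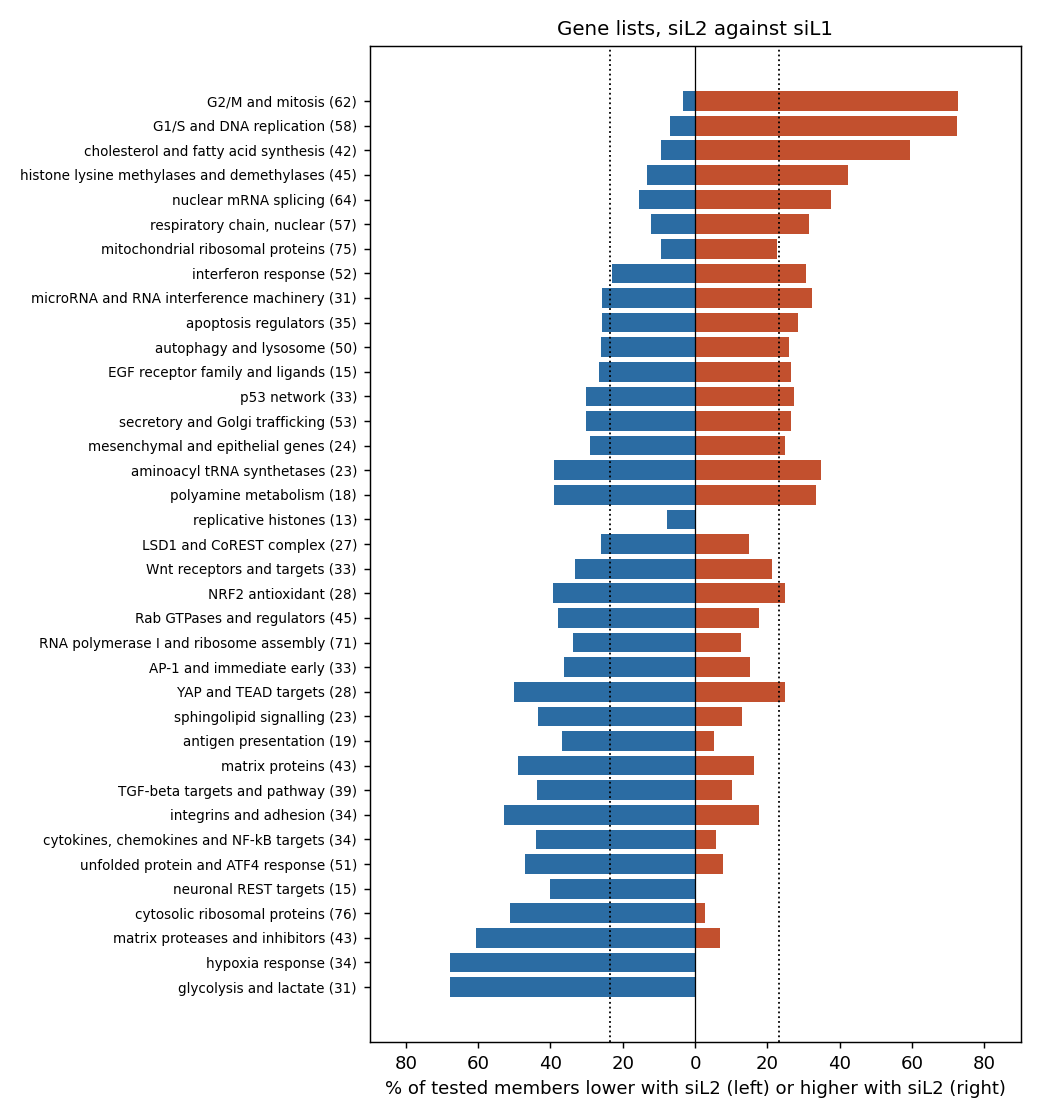
Share of the tested members of each gene list (number in parentheses) that were called lower (blue, left) or higher (red, right) with siL2 than with siL1, in %. Dotted lines mark the shares among all tested genes, 23.6% lower and 23.3% higher. The cell-cycle and lipid synthesis lists lie at the top with most members higher, and the glycolysis, hypoxia and protease lists lie at the bottom with most members lower.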

How the data were processed

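RNA-seq of 6 libraries was deposited as 1 table of 23368 gene symbols. Per the labels and the submitters' processing notes, reads were aligned with TopHat 1.3.3 to hg19, counted with HTSeq and compared with DESeq, while the annotation and strand setting are not given in the sources used here. The authors deposited raw counts per library, a linear fold change per siRNA (a ratio to the control mean), and an adjusted p-value for each fold change.

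Counts were analysed with R 4.3.3 and edgeR 4.0.16. For siL2 against siL1, the 4 libraries were filtered with filterByExpr (13274 genes kept, 10094 left out), scaled by TMM and tested two-sided with glmQLFit and glmQLFTest with group as the only term (2 residual degrees of freedom, biological coefficient of variation 3.65%) and Benjamini-Hochberg adjustment at 0.05. A fit of all 6 libraries (13322 genes, 3 residual degrees of freedom) gave the changes against the control and the CPM. SDs are over 2 libraries and SEs are of log2 differences. On simulated data the test found 23 of 50 genes planted at a log2 difference of 0.25, 32 at 0.5, 47 at 1 and 50 at 2, with 15 false calls among 13074 unchanged genes. Far fewer genes were changed in the simulation than the 46.9% called in the data. Its cut-off on the unadjusted p was therefore stricter, and the recovery holds for that setting only. Replicates of a group differed by more than counting noise.

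The genes named are KDM1A, the 15 highest and 15 lowest differences with at least 5 CPM and groups that did not overlap, the leaders of the classes with both siRNAs called, the 5 tested members of each list that had the lowest p, and MKI67, MMP1, SPNS2, ISOC1, RAB38, CDKN1A and a few others fixed by name. The genes compared, the lists and the heptamers were chosen with earlier results of these data known. The longest annotated 3′ UTR of GENCODE v29 (GRCh38) was joined by symbol to 85.9% of the tested genes, and a gene without one was not searched. Heptamers were searched with Python 3.11.15. Alternatives changed the scaling, the filter, the test (DESeq2 1.42.0, limma-voom 3.58.1), the libraries fitted and the replicate block. A few items are not reported here.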

Additional observations from a re-analysis of the deposited data

How the results depend on the processing

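Leaving out 1 library gave 5384 to 5577 genes that differed (2662 to 2771 higher and 2684 to 2810 lower with siL2), 122 to 161 at least 2-fold higher, 314 to 360 at least 2-fold lower, and a KDM1A difference of -0.69 to -0.62. The classes ranged over 373 to 517 genes (siL2 further), 499 to 694 (siL1 further), 301 to 446 (opposite), 1291 to 1675 (siL2 alone), 1653 to 2180 (siL1 alone) and 586 to 1233 (neither). DESeq2's test called 4496 genes, all among the 6223, with 81 at least 2-fold higher and classes of 338 (siL2 further), 455 (siL1 further) and 323 (opposite). Other scalings, filters, limma-voom and a fit of all 6 libraries called 6163 to 6240 genes. With the replicate number as a block, 7690 genes differed, including the 6223, and the classes grew to 1061 (siL2 further), 1348 (siL1 further) and 955 (opposite). The block also moved list counts: the LSD1 and CoREST list had 11 higher and 8 lower in place of 4 and 7, which turns its balance. The mitochondrial ribosomal list had 28 higher and 12 lower in place of 17 and 7, RNA polymerase I had 15 higher in place of 9, TGF-beta 7 in place of 4, proteases 5 in place of 3, cytokines 4 in place of 2, glycolysis 1 and REST targets 1 in place of 0, and the respiratory chain 13 lower in place of 7. Same-numbered libraries deviated together (correlation 0.406 for siL1 with siL2, 0.349 for siControl with siL1 and 0.453 for siControl with siL2, over 10447 genes), but 2 numbers do not show a pairing, so the block was not used. Restricting to differences of at least 2-fold moved the share with GTTACAA among lower genes from 17.0% to 25.3% and that with ACAGAGC among higher genes from 22.0% to 28%. Neither KDM1A nor any named gene changed sign under these settings. The near-even p53 and polyamine lists had more higher than lower members under some of them, such as 11 and 8 for p53 without siL1 replicate 2 and 6 and 4 for polyamine genes without siL1 replicate 1. For the named genes, 21 of the values under an alternative missed the threshold that the main value passed and 6 passed where it did not, while 2887 kept their side. Of the list values, 70 moved and 1406 did not. The cause of these moves was not tested. With 2 libraries per group, small differences in weakly expressed genes are the ones most easily missed.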
